A study of Homo sapiens with 15 samples.

Results

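The 3 libraries described here are those of NCI-H69 cells that had received the solvent DMSO, taken by their column names from a table of 9 H69 libraries, in a series of 15 samples. NCI-H69, a long-established human line, represents the classic form of small cell lung cancer and grows as floating clusters. The series used the DMSO cells as controls for FTO inhibitors, so the cells were solvent-treated and not untouched, with a DMSO dose and exposure time not given in the sources used here. The 3 libraries carry the numbers 1, 2 and 3, and the series calls its replicates biological. No treatment is compared here. The questions are which genes were transcribed, which were silent, and which member of each gene family supplied most of its messenger RNA.

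Small cell lung cancer is a neuroendocrine tumour: its cells store peptides and amines in dense-core granules and release them on stimulation, as neurons and endocrine cells do. Other forms of the tumour are marked by the transcription factor NEUROD1, by POU2F3 in a tuft-cell-like form, or by YAP1 in cells that lack neuroendocrine traits. Loss of RB1 function is near universal, and a MYC family gene is often amplified. Many proteins in this account come in families of close relatives whose members are used by different tissues, so the relative used is informative about the state of a cell.

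Levels are given as TPM, a unit in which counts are divided by the length of a gene's exons and scaled to the same sum in every library. Where 3 values stand in a row they belong to replicates 1, 2 and 3 in that order, and a value on its own is the mean of the 3 libraries, with its SD after ± where the spread is given. A gene is called on with at least 1 TPM in every library and off with under 3 counts in every library, and the rest lie between. A count is called uncertain where more than 10% of a gene's exon bases, or of the 50-base windows of its transcripts, occur in another gene, since reads may then have been split or mixed. The libraries held 38241172, 31404658 and 45022633 counts, so that 3 counts corresponded to 0.0784, 0.0955 and 0.0666 CPM, the count scaled to the library total alone. Each pair of libraries differed by more than the noise of independent counts. The chi-square per degree of freedom was 8.66 for replicates 1 and 2, 8.99 for replicates 1 and 3 and 4.16 for replicates 2 and 3. Replicate 1 was thus the library farthest from the others, and the genes in which it stood apart are given with the spread between libraries. The chi-square values would be too high if both reads of a pair were counted. Whether they were is not given in the sources used here. The 4 marker genes given for these cells (MYCN, GRP, DDC and CHGB) were all on, with a median of 423 TPM.

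Of 19855 protein-coding genes with a length, 12184 (61.4%) were on, 4262 (21.5%) were off and 3409 lay between. No count at all was seen for 3110 of them in any of the 3 libraries. The median of the genes that were on was 24.7 TPM, 1567 genes reached 100 TPM in every library and 57 reached 1000 TPM. Counts were spread over many genes: the 10 most abundant genes took 6.36%, 6.26% and 6.04% of all counts, and it took 1137, 1150 and 1157 genes to reach 50% of them. Genes of the mitochondrial genome took 5.69%, 5.51% and 5.18% of the counts. They were at the top of the table, with MT-CO1, a core subunit of cytochrome oxidase, at 37943, 37168 and 37955 TPM, an uncertain count. Because these transcripts are short, the same genome took 20.5%, 20.3% and 19.2% of the summed TPM.

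Among nuclear protein-coding genes, translation, protein folding and the cytoskeleton were at the top. EEF1A1, which delivers aminoacyl-tRNA to the ribosome, was first with 4217, 4275 and 4231 TPM, well above ACTG1, a cytoplasmic actin, at 2900, 2830 and 2889 TPM. The elongation factor EEF2 (2751 TPM ± 103), the chaperones HSP90AB1 (2720 ± 24) and HSP90AA1 (2572 ± 173), the ATP synthase subunit ATP5F1B (2556) and the glycolytic enzyme GAPDH (2520) followed. The ranks from 8 to 18 held ribosomal proteins, among them RPL41, RPS2 and RPS12, the tubulins TUBA1A and TUBB, the actin-binding thymosins TMSB10 and TMSB4X, ACTB, the chaperone HSPA8 and the chromatin protein HMGN2, from 2385 down to 1803 TPM. MYCN, a transcription factor, held rank 19 with 1799, 1751 and 1811 TPM, next to the prolyl isomerase PPIA at 1783 TPM. A transcription factor thus lay among housekeeping genes on this scale, and its 3 libraries differed by less than 60 TPM. The scale divides by the joined exons of all annotated transcripts, 2602 bases for MYCN and 5948 for EEF1A1. Ranks were not recomputed with another length. By counts alone MYCN was at 1227 CPM, below IGFBP5 at 1786 CPM, which it exceeded in TPM. The neuronal microtubule protein MAP1B had the second highest nuclear count, but held rank 24 per length with 1609 TPM ± 118. Further genes above 1000 TPM included CKB, the brain-type creatine kinase (1671 ± 78), and IGFBPL1, a secreted protein of developing neurons (1548). INSM1 (1148) and IGFBP5 (1051 ± 33) were above 1000 TPM as well. The counts of EEF1A1, HSP90AB1, HSP90AA1, GAPDH, RPL41, RPS2, RPS12, TUBA1A, TUBB, TMSB4X and HMGN2 are uncertain.

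**Figure D1:**
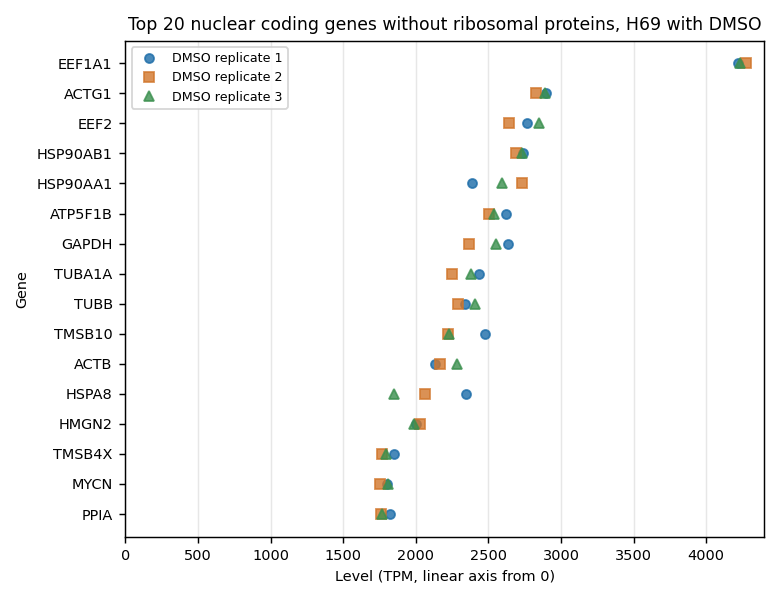
Levels of those of the 20 most abundant nuclear protein-coding genes that encode no ribosomal protein, with TPM on a linear horizontal axis from 0 and a symbol for each of the 3 DMSO libraries. EEF1A1 stands alone at 4217 to 4275 TPM, and MYCN is the 1 transcription factor in view, with its 3 libraries between 1751 and 1811 TPM.

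The 85 cytosolic ribosomal protein genes had a median of 368 TPM, and 68 of them lay over 100 TPM. Their range ran from RPL41 at 2385 TPM to RPL10L, a testis-type copy of RPL10, at 0. Tissue-restricted copies were low: RPL3L was at 0.609 TPM against 679 for RPL3, and RPL39L at 0.0762 against 349 for RPL39. Long non-coding RNA took 1.5%, 1.6% and 1.58% of the counts, and 2394 of 14711 such genes were on. The most abundant was MYCNOS, transcribed from the strand opposite MYCN, at 585, 589 and 590 TPM. MYCNUT, another non-coding gene beside MYCN, was at 166, 170 and 174 TPM. Exons of MYCNOS and MYCN overlap in part (5.18% of MYCNOS), and whether the counting used strand is not given in the sources used here. After MYCNOS came NORAD, a cytoplasmic RNA that binds PUMILIO proteins (424 TPM, an uncertain count), DLX6-AS1 (345 ± 25), LRRTM4-AS1 (311) and LINC00461 (193 ± 20).

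The neuroendocrine programme was on nearly in full. Of 25 neuroendocrine markers, 24 were on (96%, against 61.4% of all protein-coding genes), with a median of 222 TPM. The list includes GRP, DDC and CHGB, given as markers of these cells, and was chosen with earlier results of these data known. Its share is thus a description and not a test. INSM1, a zinc-finger factor of neuroendocrine differentiation, was highest at 1240, 1074 and 1131 TPM. UCHL1, a neuronal ubiquitin hydrolase, was at 869 TPM in each library. DDC, which makes dopamine and serotonin from their precursors, was at 404, 382 and 385 TPM. These levels held to within 10% of their mean in every library. SYP, the vesicle protein synaptophysin used in pathology, was at 96.6 TPM ± 5.0 and NCAM1 (CD56) at 162 ± 10. The lowest markers that were on were SRRM4, a neural splicing factor (1.79 TPM), RET, a receptor kinase (2.83), and NKX2-1, the lung lineage factor also called TTF-1 (9.99, an uncertain count). CALCA, which encodes calcitonin and its related peptide, was the marker that was off, with 0 counts in all 3 libraries. TUBB3, the neuronal tubulin, was at 12.3 TPM, but 35.8% of its exon bases are shared with other genes, so that its level is uncertain.

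The factors that mark other forms of this tumour were low. NEUROD1 was at 0.470, 0.841 and 0.697 TPM. POU2F3 had a single count in the 3 libraries together, at 0.00429 TPM, and YAP1 had none. ATOH1, a further neurogenic factor, was at 0.0293 TPM. Low NEUROD1 did not extend to every gene of its class, of which 2 of 5 were on (40%, against 61.4% of all protein-coding genes). NEUROD4 was at 85.5, 88 and 81.1 TPM and NHLH1 at 4.97, while NEUROD2 was at 0.677 and NHLH2 at 0.786. Several lineage factors were high. FOXA2, a pioneer factor of endoderm, was at 236 TPM ± 8.4 against 112 for FOXA1 and 4.54 for FOXA3. SOX2 was at 572, 522 and 563 TPM, ahead of SOX4 (347) and SOX12 (115), and SOX11 was at 12.9.

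Genes that oppose this programme in other cells were mostly silent or low. REST (ENSG00000084093), the repressor that keeps neuronal genes off outside the nervous system, had 0 counts in each library, which allows up to 0.0784, 0.0955 and 0.0666 CPM. YAP1 had 0 counts in each as well, and its paralog WWTR1 (TAZ) was at 0.0202 TPM. VIM, the intermediate filament of mesenchymal cells, had 1, 0 and 0 counts, although 24.4% of its exons overlap other genes and its level is therefore uncertain. Of the 12 non-neuroendocrine markers, 6 were off, against 21.5% of all protein-coding genes, and 4 were on (33.3%, against 61.4%). Those on were CD44, an adhesion receptor (18.7 TPM), HES1, a Notch target (7.98), MYC (2.82) and AHNAK (2.63). AXL, EPHA2 and CAV1, receptors and a caveola protein of non-neuroendocrine cells, were at 0.0660, 0.0293 and 0.0268 TPM.

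**Figure D2:**
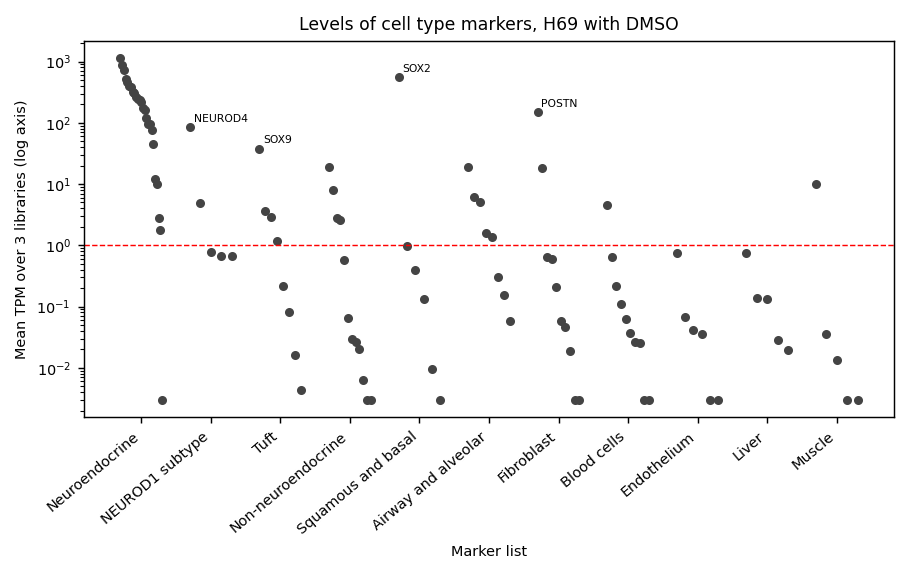
Mean TPM over the 3 DMSO libraries (log axis) for each gene of the neuroendocrine list and of 10 lists of other cell types or subtypes, with 1 point per gene and a dashed line at 1 TPM. Genes under the lower end of the axis, zeros included, are drawn at its bottom. All but 1 of the 25 neuroendocrine genes lie above the line, and in the other lists the points over 30 TPM are NEUROD4, SOX9, SOX2 and POSTN.

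The promoters of 2 genes that were high and 2 that were silent are shown, because the first 2 lie above 100 TPM and the other 2 have 0 counts while all 4 are rich in CpG. Each line gives the 250 bases before the RefSeq start, from RefSeq on GRCh38.p14, on the plus strand. The coordinates are chr18:59219908-59220157 for GRP, chr14:92922900-92923149 for CHGA, chr4:56907650-56907899 for REST and chr11:102110197-102110446 for YAP1. Capitals mark the TATA motif TATAAA in GRP and the cyclic AMP response element TGACGTCA in CHGA. Neither of these motifs nor the E-box CAGCTG was found on either strand of the REST and YAP1 windows, and the YAP1 window holds the E-box CACGTG, left in lower case, which occurred in 7.83% of all promoters of this length.
GRP: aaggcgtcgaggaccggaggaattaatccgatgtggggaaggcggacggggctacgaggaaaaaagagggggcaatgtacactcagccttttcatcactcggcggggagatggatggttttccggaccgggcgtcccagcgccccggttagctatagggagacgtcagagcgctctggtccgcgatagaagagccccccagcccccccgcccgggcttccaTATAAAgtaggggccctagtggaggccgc
CHGA: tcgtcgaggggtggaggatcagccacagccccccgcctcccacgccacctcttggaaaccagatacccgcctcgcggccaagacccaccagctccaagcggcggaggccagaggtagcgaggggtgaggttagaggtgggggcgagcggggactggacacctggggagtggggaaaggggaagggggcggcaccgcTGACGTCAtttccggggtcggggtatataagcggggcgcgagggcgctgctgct
REST: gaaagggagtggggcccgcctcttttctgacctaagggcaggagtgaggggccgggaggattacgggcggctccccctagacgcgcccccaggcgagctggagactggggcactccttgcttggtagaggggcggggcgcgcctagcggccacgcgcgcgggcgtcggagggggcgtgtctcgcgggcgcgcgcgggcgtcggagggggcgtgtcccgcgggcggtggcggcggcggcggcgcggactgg
YAP1: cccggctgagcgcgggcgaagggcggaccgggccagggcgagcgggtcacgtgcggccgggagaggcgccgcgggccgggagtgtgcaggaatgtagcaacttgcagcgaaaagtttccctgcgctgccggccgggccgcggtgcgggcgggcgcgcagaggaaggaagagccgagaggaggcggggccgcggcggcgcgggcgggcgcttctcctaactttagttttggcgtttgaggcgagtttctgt

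The TATA motif of GRP began 29 bases before the start and the response element of CHGA 54 bases before it. TATAAA occurred in 9.2% of the 15297 protein-coding promoters of this length and TGACGTCA in 2.37%. GC content was 62.4% in GRP and 68.8% in CHGA, against 76.8% in REST and 72% in YAP1. PCSK1, which processes the peptides, also held TGACGTCA, 77 bases before its start. A match is a match of letters and does not show that a factor bound there.

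The secretory pathway was laid out from the granule matrix to the hormone. All 7 granin-family genes were on, against 61.4% of all protein-coding genes. CHGA, which drives granule formation, was highest with 743, 714 and 755 TPM (ENSG00000100604). SCG3 (247 ± 11), SCG2 (222 ± 16), CHGB (177 ± 4.0), PCSK1N (143) and VGF (104) followed, and SCG5, a chaperone of the convertase PCSK2, was at 3.79. Prohormone convertases cut precursors into active peptides. PCSK1 was at 223, 240 and 250 TPM and PCSK2 at 50 TPM ± 0.99. The broadly used FURIN was at 9.57, so that PCSK1 held 75.9% of this family.

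Of 22 peptide hormone genes, 6 were on (27.3%, against 61.4% of all protein-coding genes) and 13 were off (against 21.5%). GRP, gastrin-releasing peptide, a growth factor of this tumour type, was at 476, 421 and 472 TPM (ENSG00000134443). NTS, neurotensin, was second at 92.8, 89.7 and 109 TPM. PENK, ADM, CARTPT and AVP were on between 1.40 and 6.56 TPM, and SST, VIP, GAL, INS and GCG had 0 counts. GRP held 98.98% of the bombesin peptides, with its relative NMB at 4.72 TPM. The receptors for these peptides were low: BRS3 was at 0.882 TPM, GRPR at 0.242 and NMBR at 0.0924, so none of the 3 was on. Somatostatin receptors were present without the hormone, with SSTR2 at 43.4 TPM ± 3.3, SSTR1 at 37.3 and SSTR5 at 8.08.

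The vesicular monoamine transporter was SLC18A1 (VMAT1), the endocrine form, at 25, 26.2 and 28.8 TPM, against 1.27 for SLC18A2 (VMAT2), the neuronal form. The glutamate transporter SLC17A6 was at 7.46 TPM, SLC17A7 at 0.210 and the GABA transporter SLC32A1 at 0.230. SNAP25, the neuronal membrane SNARE, was at 110, 127 and 120 TPM, or 70% of its family. SNAP47 was at 33.3, SNAP29 at 15.7 and the broadly used SNAP23 at 1.82, all 3 with uncertain counts. STX1A, the partner of SNAP25, was at 61.2. Of 14 synaptotagmins, the calcium sensors of release, 9 were on, a share (64.3%) close to the 61.4% of all protein-coding genes, and the highest were SYT4 (236 ± 16) and SYT1 (95 ± 8.4). VAMP7 (99.5) exceeded VAMP2 (26.4) among the vesicle SNAREs.

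Excitability genes were on in part, against 61.4% of all protein-coding genes. On were 4 of 7 calcium channel genes (57.1%), 4 of 9 sodium channel genes (44.4%) and 4 of 10 nicotinic subunits (40%). Of 4 AMPA receptor subunits 3 were on (75%). CACNA1A, CACNA1B and CACNA1E, the pores of the neuronal calcium channels, were at 35.8, 31.1 and 24.6 TPM. The L-type CACNA1D and CACNA1C, the forms of endocrine cells and heart, were at 1.85 and 0.353. Among sodium channels SCN9A (26.6), SCN1A (18.5) and SCN8A (14) were on. The nicotinic subunits CHRNA3 (58.3 ± 3.0) and CHRNB2 (58.1 ± 1.0) overlapped in range, with CHRNA5 at 17.4 and CHRNA7 at 0.0943. Among AMPA receptor subunits GRIA2 was at 43.7, 65.7 and 65.4 TPM, GRIA1 at 29.5 and GRIA3 had 0 counts.

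Markers of other cell types were mostly not on. Of 70 such genes, 17 were on (against 61.4% of all protein-coding genes), 26 were off (against 21.5%) and 27 lay between. All 6 endothelial and all 5 liver markers were under the threshold, the highest being VWF at 0.754 and APOA1 at 0.754 TPM. Of 10 blood cell markers CD14 was on, at 4.47 TPM, and PTPRC (CD45) was at 0.636. Of 10 fibroblast markers COL1A2 (18 TPM) and POSTN were on. POSTN, periostin, a matrix protein, was at 130, 160 and 158 TPM, yet COL3A1 and DCN had 0 counts and COL1A1 was at 0.207. SOX2 was the squamous marker that was on, with KRT5 at 0.388 and TP63 at 0.989. Of the tuft markers SOX9, a progenitor factor, was at 37.5 TPM, ASCL2 at 3.69 and AVIL at 2.88. Of 8 airway and alveolar markers 5 were on (62.5%), a share close to the 61.4% of all protein-coding genes. They were MUC1 (19 TPM), AGER (6.05), MUC5AC (5.12), MUC5B (1.60) and FOXJ1 (1.35). The surfactant genes SFTPC and SFTPB were at 0.155 and 0.0574. Of the keratins of simple epithelia, KRT8 (285 ± 16), KRT19 (186) and KRT18 (78.2) were on and KRT20 had 0 counts. KRT15, a keratin of stratified epithelia, was at 36.1, and 2 of the 11 stratified keratins were on. CDH1, E-cadherin, was at 4.74 TPM and CDH2, N-cadherin, at 6.51.

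Gene families were read for the share of each member in the summed TPM of its family. In 123 families of 521 genes, a single member held at least 80% in every library in 43, and these are called led. The leader held at least 95% on average in 29 of them. Of 31 families with 2 members 22 were led, and of 92 larger families 21 were. In 5 families the leader and the next member overlapped in range between libraries. Of the 55 families with no uncertain member, 21 were led. Among other members named in this account, the counts of CDK4, CCND1, CCND2, BCL2L1, BCL2L2, NOTCH2, PDGFRA, STX1A, VAMP2, SLC18A2, SLC2A3, ALDH1A3, COX6A2, KRT8, KRT18, CHRNA5, CHRNA7, RPL3, RPL39L, PENK, INS, IGFBP7, DLEC1 and TERC are uncertain.

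**Figure D3:**
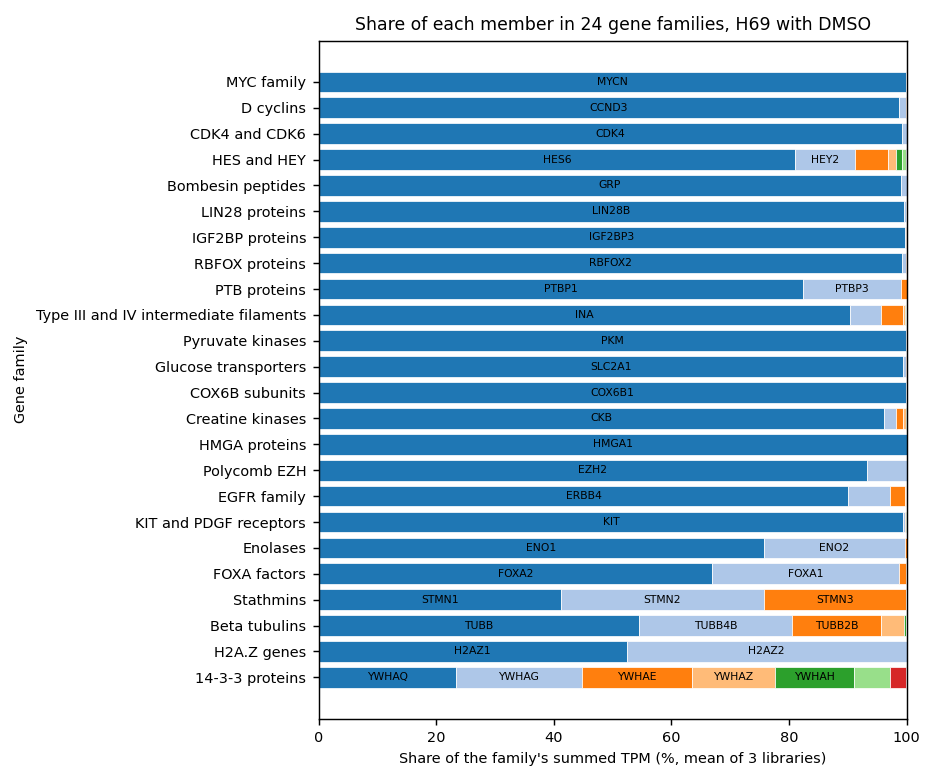
Share of each member in the summed TPM of 24 gene families, in percent, as the mean of the 3 DMSO libraries, with members ordered from left to right by level and named where their share is large enough. The upper bars are filled by a single member, such as MYCN with 99.83% of the MYC family, and the lower bars are divided, such as the H2A.Z genes with 52.4% for H2AZ1.

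Growth control was led by single members at several steps. MYCN (ENSG00000134323, chromosome 2, 15940564 to 15947007, plus strand, GRCh38) held 99.84%, 99.82% and 99.84% of the MYC family. MYC was at 2.72, 2.99 and 2.74 TPM and MYCL at 0.135, 0.144 and 0.236. The line is known to carry extra copies of MYCN, and gene copies were not measured here. DDX1, a helicase gene near MYCN, was at 135, 152 and 143 TPM and NBAS, farther along the same arm, at 15 TPM. Among D cyclins, which activate CDK4 and CDK6, CCND3 was at 38.8, 32.6 and 36.4 TPM. CCND1, the most studied of them in cancer, was at 0.453 and CCND2 had 0, 2 and 0 counts. CDK4 was at 187 TPM ± 7.4 and CDK6 at 1.34. Their INK4 inhibitors were all on, against 61.4% of all protein-coding genes. CDKN2C (p18) was at 232, CDKN2D (p19) at 110, CDKN2A (p16 and ARF) at 82.5 and CDKN2B (p15) at 10.5.

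RB1, whose protein holds cells back from DNA replication, was at 15.1, 14.2 and 15.3 TPM. An RNA level does not show whether a protein is made or works. CDKN1A, an inhibitor of cyclin-dependent kinases, was at 274, 206 and 230 TPM. E2F1, a factor that RB1 restrains, was the highest of its family at 266 TPM ± 9.1. All 8 E2F genes were on, against 61.4% of all protein-coding genes. AURKB (102) and AURKA (93), mitotic kinases, were near each other and AURKC was at 2.08. Of 28 tumour suppressor genes listed after levels were seen, 26 were on (92.9%, against 61.4% of all protein-coding genes). The other 2 were FHIT (0.433) and DLEC1 (0.0292).

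In cell death, the survival gene MCL1 was at 312, 292 and 297 TPM, ahead of BCL2L1 (141), BCL2L2 (52) and BCL2 (48.4), and BCL2A1 had 0 counts. CASP2 held 92.5% of the initiator caspases at 49.2 TPM. CASP8, which acts below death receptors, was at 2.50, CASP9, which acts below mitochondria, at 1.47, and CASP10 had 0 counts.

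Notch ligands outweighed receptors. DLL1 was at 170, 152 and 171 TPM, and DLL3, a ligand that inhibits Notch within the cell and a drug target in this tumour, was at 80.3, 71.6 and 76.6. JAG2 was at 76.1. NOTCH2 (10.4), NOTCH1 (9.45) and NOTCH4 (1.97) were on and NOTCH3 was at 0.0734. HES6, a relative of the Notch targets that counters HES1, was at 470, 411 and 432 TPM and held 81% of the HES and HEY genes. HES1 was at 7.98, HEY2 at 55.6 and HEY1 at 29.7.

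Several growth factor receptor families were led by a single member. KIT, the stem cell factor receptor, was at 78.3, 86.9 and 85.1 TPM and held 99.39% of its family, with PDGFRA at 0.152 and PDGFRB at 0.0585. Of the EGFR family ERBB4 was at 12.6, 14.7 and 15.3 TPM, ERBB2 at 1.12, and EGFR had 2, 6 and 2 counts. IGF1R was at 14.1, 14.5 and 15.4 TPM and its close relative INSR, the insulin receptor, had 2, 0 and 2 counts. IGF2R, which clears IGF2, was at 72.4 and made up 83.2% of the set of 3. FGFR1 was at 6.51, FGFR2 at 0.0965, and NTRK3 had 0 counts. FYN held 81.9% of the SRC family kinases, and AKT1 was at 98.7 TPM and AKT2 at 33.4. HRAS (188) lay above NRAS (67).

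Proteins of the fetal and stem-like state followed the same pattern. LIN28B, a blocker of let-7 maturation, was at 14.3, 18.6 and 19.5 TPM and LIN28A at 0.0648. IGF2BP3, an oncofetal RNA-binding protein, was at 30.9, 36.2 and 34.1 TPM, an uncertain count, and IGF2BP1 was at 0.0533. HMGA1, an architectural chromatin protein, was at 929, 838 and 953 TPM and HMGA2 had 0 counts. Neural RNA-binding proteins were mixed: ELAVL2 (300.4) and ELAVL3 (200.5) exceeded the ubiquitous ELAVL1 (124), while PTBP1, the non-neural splicing repressor, was at 403 against 5.01 for its neural relative PTBP2. RBFOX2 was at 128 and the neuronal RBFOX1 and RBFOX3 at 0.845 and 0.115. SRRM3 (21.5) exceeded SRRM4 (1.79).

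Several of the measured genes host microRNAs, small RNAs that these messenger RNA libraries do not measure, so the values that follow are of the host transcripts. The microRNAs below are shown because copies with the same seed lie in hosts at very different levels. Capitals mark the seed, bases 2 to 8 from the 5′ end, and the sequences are from RefSeq on GRCh38.p14.
hsa-miR-9-5p: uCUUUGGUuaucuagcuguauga
hsa-miR-218-5p: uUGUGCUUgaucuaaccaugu
hsa-miR-106b-5p: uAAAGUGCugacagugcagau
hsa-miR-17-5p: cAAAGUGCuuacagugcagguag
hsa-miR-20a-5p: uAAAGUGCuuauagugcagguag
hsa-miR-25-3p: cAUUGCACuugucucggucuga
hsa-miR-92a-3p: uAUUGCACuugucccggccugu

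Of 3 copies of the neural miR-9, the copy on chromosome 5 lies in LINC00461, at 170, 201 and 208 TPM. The hosts of the other copies were MIR9-3HG at 4.29, 3.88 and 3.84 TPM and MIR9-1HG at 0.792. Of the copies of miR-218, a motor neuron microRNA, 1 lies in SLIT2 (34.4 TPM) and 1 in SLIT3 (0.433). The seed AAAGUGC is shared by miR-106b, which lies in MCM7, a replication helicase gene, and by miR-17 and miR-20a, which lie in MIR17HG. The seed AUUGCAC is shared by miR-25 in MCM7 and miR-92a in MIR17HG. MCM7 was at 558, 550 and 607 TPM, and MIR17HG, the host of an oncogenic cluster, at 7.41, 9.64 and 9.40, an uncertain count. A host level does not give the level of a microRNA, since processing differs between hosts.

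Chromatin families were led in part. EZH2, the catalytic subunit of Polycomb repressive complex 2 in dividing cells, was at 297, 332 and 323 TPM, and EZH1 at 23.1. SMARCA4 (153) held 90.5% against SMARCA2 (16.1). The neural SWI/SNF subunit ACTL6B was at 86.9 TPM beside its progenitor form ACTL6A at 187, so both were on. DNMT1, the maintenance methyltransferase, was at 241, DNMT3B at 116 and DNMT3A at 19.4. PARP1 (512) held 86% against PARP2 (83.3), and TOP2A (494 ± 40), the etoposide target of dividing cells, exceeded TOP2B (227).

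In metabolism several choices between isoforms were clear. SLC2A1 was the glucose transporter, at 58.2, 48.5 and 53.5 TPM, and SLC2A3, the neuronal form, had 0 counts. Among hexokinases HK1 was at 29.1, and HK2 at 31.9, 22.7 and 20.3. PKM held 99.99% of pyruvate kinase, ENO1 (823) and the neuronal ENO2 (261) were both high, and LDHA was at 774, 657 and 656 TPM. LDHB was at 8.79 TPM and ALDOA at 4.07, but 33.4% and 53.5% of their exon bases are shared with other genes, so neither level can be taken as low. CKB held 96.2% of the creatine kinases. ALDH1A1, an aldehyde dehydrogenase used as a stem cell mark, was at 282, 318 and 307 TPM with ALDH1A3 at 0.0533. Heart and muscle forms of cytochrome oxidase were silent or nearly so: COX6A2 had 0 counts, COX7A1 was at 0.430 against 368 for COX7A2, and COX4I2, the form of low oxygen in lung, was at 0.140 against 190 for COX4I1.

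Other families were shared out. The H2A.Z genes H2AZ1 and H2AZ2 were at 422 and 383 TPM. The 7 adapter proteins of the YWHA and SFN family lay between 103 TPM for YWHAB and 852 for YWHAQ, with no member over 23.3% on average. Stathmins, which release tubulin from microtubules, were split between STMN1 (364), STMN2 (306 ± 3.3) and STMN3 (215), with the neuronal STMN4 at 0.143. In the neuronal intermediate filament family INA, alpha-internexin, was at 303, 304 and 315 TPM and held 90.3%. The neurofilament genes NEFL, NEFM and NEFH were at 0.0618, 0.0148 and 0.512, all 3 with uncertain counts.

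The families that follow were listed after levels had been seen, and they describe position and contact. Their counts stand against the 61.4% of all protein-coding genes that were on. All 6 DLX homeobox genes, which mark forebrain interneurons and branchial arches, were on. DLX5 was at 653, 658 and 688 TPM, DLX1 at 141, DLX2 at 77.6 and DLX6 at 73.9. ISL1, a factor of motor neurons and endocrine cells, was at 170, 177 and 180 TPM, and POU3F2, a neural factor, was at 68.4. SIX2 (62.7) and SIX3 (61.3) overlapped in range. PAX9 (20.7) and PAX5 (19.3), of pharyngeal endoderm and B cells, were the highest PAX genes, while PAX2, PAX3 and PAX7 had 0 counts. Of 39 HOX genes 29 were on (74.4%), the highest being HOXC10 (65.1), HOXB2 (60.8) and HOXC9 (59.3), which pattern different levels of the body axis. Counts of 18 of the 39 are uncertain, though not those of the HOX genes just named. GATA2 (14.3) was the GATA factor that was on.

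In adhesion and signalling, CLDN3 (190) was the highest claudin and 8 of 24 were on. Of 44 collagens 12 were on (27.3%), the highest being COL2A1, the collagen of cartilage, at 283, 276 and 297 TPM. LAMB1 (127), LAMC1 (78.6) and LAMA3 (45.1) were the top laminins, and ITGA6 (65.6) and ITGB1 (112), a laminin receptor pair, the top integrins. ROBO1, a guidance receptor, was at 202, 233 and 244 TPM with its ligand SLIT2 at 34.4. Of 10 Frizzled receptors 9 were on, the highest being FZD2 (52.8), and WNT7B (35.1) was the highest of the 9 of 19 WNT ligands that were on. IGFBPL1, IGFBP5 and IGFBP2 (176) were high while IGFBP3 and IGFBP7 were at 0.0835 and 0.0800. CD24 was at 858 TPM and CD9, a tetraspanin, at 0.280, 0.116 and 0.267. Of 381 olfactory receptors 5 were on, and OR51E2, also known from prostate, was highest at 50.1, 53 and 55.5 TPM.

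Of 15 surface proteins that are pursued as drug targets, 10 were on (66.7%), a share close to the 61.4% of all protein-coding genes. EPCAM was at 322, 335 and 318 TPM and SEZ6, a neuronal membrane protein, at 318, 308 and 340. CD47 was at 103 and CEACAM5 at 8.98, the latter with an uncertain count. CD276 (B7-H3) was at 2.11 and CD274 (PD-L1) at 0.211. Antigen presentation genes were uneven. HLA-C was at 137, 118 and 130 TPM, while HLA-B was at 0.614. HLA-E, which restrains natural killer cells, had 0, 2 and 0 counts. The HLA-B count is uncertain. Of 13 class II genes 0 were on. Of 22 cancer-testis genes 4 were on (18.2%, against 61.4% of all protein-coding genes) and 17 were off (against 21.5%). The counts of 10 of the 22 are uncertain, among them some that were off, such as SSX2 and CTAG1B with 0 counts. MAGEA3 (385) and MAGEA6 (286) were high, and being near-identical they can only be read together. PRAME was at 21.1, 24.8 and 23.4 TPM. TERT, the catalytic subunit of telomerase, was at 7.89, 8.60 and 8.45 TPM, and its RNA partner TERC had 1, 2 and 0 counts in these libraries.

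The spread between the 3 libraries was small for most genes. Over the 9887 genes that averaged 10 CPM or more, the median coefficient of variation (CV, SD over mean) was 4.9%, and 38 genes exceeded 20%. Of 18023 genes tested, 6745 (37.4%) varied beyond counting noise by a chi-square test with Benjamini-Hochberg adjustment at 0.05. Without replicate 1 this count was 2385. The test takes counts as independent, so both numbers would be too high if both reads of a pair were counted. The 10 most variable genes were DAZ4, VEGFA, SMN1, DDIT4, NXPH4, EGLN3, CBS, MT-ND6, GPR89A and TTN. DAZ4, SMN1 and GPR89A have near-identical copies, and the counts of CBS, MT-ND6 and TTN are also uncertain. VEGFA, the angiogenic factor, was at 32.9, 8.60 and 6.81 CPM, and DDIT4, an inhibitor of mTOR signalling, at 118, 50.4 and 62 CPM. NXPH4, a neurexin ligand, was at 34.4, 17.7 and 17.2 CPM. In these 3 genes replicate 1 was above the others, and replicates 2 and 3 lay closer to each other than to replicate 1.

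VEGFA, DDIT4 and EGLN3 are textbook targets of the hypoxia-inducible factors, which act when oxygen is short. A list of 26 such genes was therefore drawn up after these values had been seen, so its count is a description and not a test. Of the 25 that were on, 22 (88%) were highest in replicate 1, against 27% of all 12184 protein-coding genes that were on. The median ratio of replicate 1 to the mean of the others was 1.3 for the list and 0.974 for all genes that were on. CA9, a carbonic anhydrase, was at 16.8, 4.64 and 6.66 TPM, and HILPDA, a lipid droplet protein, at 158, 109 and 106. The counts of DDIT4, CA9 and HILPDA are uncertain. The glycolytic genes PGK1 (460, 394 and 387 TPM) and LDHA moved less. KDM3A, PDK1 and INSIG2 were highest in replicate 2. Neuroendocrine markers were highest in replicate 1 in 10 of 24 cases, with a median ratio of 1.01. The labels name no batch among these libraries, and the cause of the difference was not tested. The mean level of VEGFA over the 3 libraries, 4.18 TPM, thus lay above both other libraries.

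**Figure D4:**
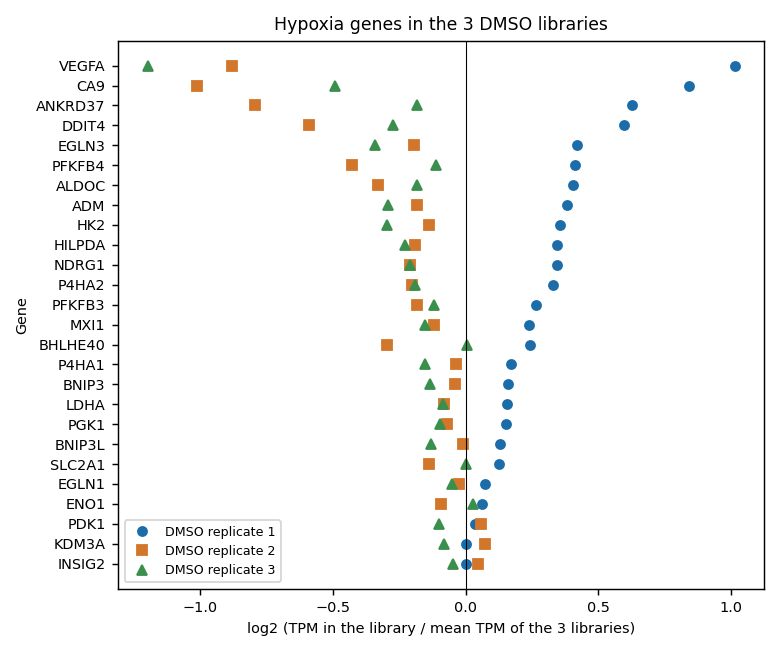
Level of each of 26 hypoxia genes in each DMSO library, as log2 of the TPM over the mean TPM of the 3 libraries, with a symbol per library and 0 for the mean. Replicate 1 lies to the right of the others for most genes, from VEGFA at 8.44 TPM against 2.27 and 1.82 down to ENO1 at 859 against 772 and 839.

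Level was also read against the promoter, over 15297 protein-coding genes with a RefSeq promoter. A window of 250 bases is called CpG-rich here with at least 55% GC and an observed over expected CpG ratio of at least 0.6. CpG-rich windows made up 19.7% of the promoters of genes that were off, 39.6% of those between, 61.6% of those on under 10 TPM, 75.8% of those from 10 to 100 TPM and 80.3% of those with 100 TPM or more. The share over all promoters was 57.4%. TATAAA, read on both strands, went the other way, from 20% of genes off to 4.48% at 10 to 100 TPM, with 6.39% in the highest class. TGACGTCA occurred in 1.19% of genes off and 3.16% of the highest class. Of the E-boxes searched, CAGCTG occurred in 14.3% of genes off and 9.83% of the highest class, and CACGTG went the other way, from 5.26% of genes off to 11.1% of the highest class. REST, YAP1, INSR and CAV1, all off, had CpG-rich windows, while DDC (GC 42.4%) and POSTN (GC 36.4%), both above 100 TPM, did not. These shares describe classes of genes within 1 cell line, and genes are not independent replicates.

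**Figure D5:**
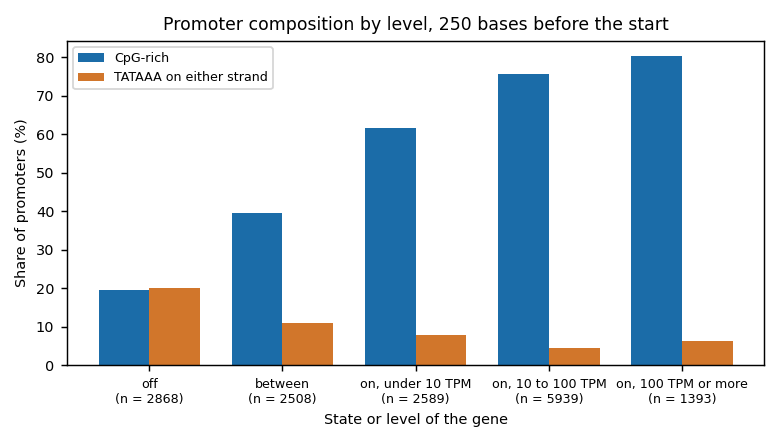
Share of promoters in percent (vertical axis from 0) that are CpG-rich or hold TATAAA, by the state or level of the gene, with the number of promoters under each class. CpG-rich promoters rise from 19.7% of genes off to 80.3% of genes with 100 TPM or more, and TATAAA is most frequent among genes off, at 20%.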

How the data were processed

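Per the labels' protocols, H69 RNA came from TRIzol extraction and went into libraries with a Hieff NGS Ultima Dual-mode kit for mRNA. The values the authors deposited are raw read counts per gene as whole numbers, on build hg38 (submitters' processing notes). The sources used here do not give aligner, counter, annotation or strand, so overlapping, antisense and near-identical genes may have split or mixed reads. Whether both reads of a pair were counted is not given either. The 3 DMSO columns were identified by their names, and the 6 H82 samples were not analysed here.

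Of 62754 Ensembl IDs, 58261 had a merged exon length in GENCODE release 29, and TPM was computed over these. The IDs without a length held 0.339% to 0.355% of the counts, so levels stand slightly above those over all IDs. Libraries were mRNA preparations, so RNA without a poly(A) tail is not measured evenly. Python 3.11.15 (pandas 2.3.3, numpy 2.4.6, scipy 1.17.1) and R 4.3.3 with edgeR 4.0.16 were used. A count is called uncertain when more than 10% of a gene's exon bases, or of its 50-base transcript windows, occur in another gene. Variation beyond counting noise was tested per gene with at least 10 counts in every library, by a chi-square test on TMM-scaled library sizes with Benjamini-Hochberg adjustment, which measures the spread between these libraries. The calculations were tested on simulated data. With 3 libraries of 1 group there is no comparison between groups, and the smallest two-sided exact sign-flip p would be 0.25.

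Members, families and lists were chosen with earlier results of these data known. The genes named are members of these families and lists (those that lead, come next or are off), the 20 coding and 5 long non-coding genes with the highest mean TPM, and the 10 with the largest CV at a mean of at least 10 CPM. Alternatives were other lengths, thresholds, normalizations and filters and leaving out each library. Promoter and microRNA sequences are from RefSeq tables on GRCh38.p14. Limits from counts cover counting error only. Results for some of these genes are not reported here.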

Additional observations from a re-analysis of the deposited data

How the results depend on the processing

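Of 58 alternative values over 8 results, 55 stayed within 1.5 times the value given (for counts) or within the SD between libraries (for shares), and 3 did not. The MYCN share of its family was 99.79% in place of 99.83% with the length of the longest transcript. The 10 most abundant genes took 3.392% of counts in place of 6.216% when genes of the mitochondrial genome were set aside. Genes varying beyond counting noise numbered 2385 without replicate 1 in place of 6745, and ranged from 2385 to 5068 when each library was left out in turn. Without uncertain genes, an alternative chosen after the data were seen, 38 of 99 families were led. Another scaling of TPM does not apply to the share of counts and was not run for it. No paired analysis was possible because the results come from 1 group and no test between groups. Genes near 3 counts cannot be told from silent ones at this depth, and RNA levels do not give copy number, protein or processing.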
